A study of Mus musculus with 8 samples.

Results

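The proteasome genes were examined in the EDL, the long toe extensor and a fast-twitch leg muscle, of Sod1 knockout mice (sod-/-, 4 arrays) and wild-type mice (4 arrays), all aged 7 months. Members were taken as all genes on the arrays whose platform symbol has the form Psma, Psmb, Psmc, Psmd, Psme, Psmf or Psmg followed by a number, with 1 probe per gene, that of highest mean over the 8 arrays. The pattern matched 43 of 7053 genes. Psmc3ip, a meiotic recombination factor, and Psme3ip1, a binding partner of Psme3, matched by name alone and were set apart, which left 41 proteasome genes on 15 chromosomes. The alpha ring had 6 genes, the core beta subunits other than the immunoproteasome 8, the immunoproteasome beta subunits 2, the ATPases 5, the other base subunits 2, the lid 8, the activators 4 and the assembly chaperones 6. Sod1 encodes the copper-zinc superoxide dismutase of the cytosol, and the series asks how muscle transcription responds to lasting oxidative stress. The labels name no strain, sex or allele design and do not say whether each sample was a different animal; the spread behind each p-value may therefore be technical.

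The proteasome is the protease that degrades ubiquitin-tagged proteins, and in muscle it carries much of the protein loss of atrophy. Its barrel, the 20S core, is built of alpha rings that gate the entrance and beta rings that hold the catalytic sites. The 19S regulatory particle caps the barrel to make the 26S proteasome: a ring of ATPases unfolds the substrate, and a lid removes its ubiquitin. Other caps, PA28 (Psme1 and Psme2, or Psme3 alone) and PA200 (Psme4), open the core without ATP, and interferon gives rise to the immunoproteasome, with exchanged beta subunits. When proteasome capacity falls short, the transcription factor Nfe2l1 (NRF1) raises the subunit genes together through antioxidant response elements.

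Promoters of 4 members are shown for reference, and no difference below rests on their sequence. Psmb5, the chymotrypsin-like catalytic subunit, and Psmd12, a lid subunit, each have an antioxidant response element match. The others are the PA28 pair Psme1 and Psme2, whose means lay on the other side of the wild type from most members. Each runs 5′ to 3′ on the gene's strand from 250 bases before to 50 bases after the RefSeq start (mouse GRCm38.p6). Capitals mark matches on either strand to TGACNNNGC (antioxidant response element), CCAAT (the NF-Y box) or GAAA repeated after 2 bases (interferon-stimulated response element).
Psmb5, chr14:54617946-54618245 (- strand): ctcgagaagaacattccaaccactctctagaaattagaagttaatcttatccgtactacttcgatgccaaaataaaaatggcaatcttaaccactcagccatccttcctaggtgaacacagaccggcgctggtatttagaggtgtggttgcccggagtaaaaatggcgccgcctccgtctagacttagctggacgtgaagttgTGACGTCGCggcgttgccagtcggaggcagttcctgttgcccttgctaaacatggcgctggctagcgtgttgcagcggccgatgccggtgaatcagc
Psmd12, chr11:107479278-107479577 (+ strand): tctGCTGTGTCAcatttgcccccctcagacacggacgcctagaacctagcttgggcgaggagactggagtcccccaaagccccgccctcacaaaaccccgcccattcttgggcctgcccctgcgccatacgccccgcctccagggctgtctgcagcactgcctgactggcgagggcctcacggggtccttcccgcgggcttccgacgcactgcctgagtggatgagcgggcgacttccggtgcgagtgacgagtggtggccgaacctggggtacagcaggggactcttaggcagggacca
Psme1, chr14:55578244-55578543 (+ strand): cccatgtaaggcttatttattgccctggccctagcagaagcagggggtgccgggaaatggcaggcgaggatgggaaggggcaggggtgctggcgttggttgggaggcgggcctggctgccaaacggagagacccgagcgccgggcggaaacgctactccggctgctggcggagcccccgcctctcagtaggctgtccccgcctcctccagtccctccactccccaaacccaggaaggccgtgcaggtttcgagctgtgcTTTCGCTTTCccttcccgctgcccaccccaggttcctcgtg
Psme2, chr14:55591052-55591351 (- strand): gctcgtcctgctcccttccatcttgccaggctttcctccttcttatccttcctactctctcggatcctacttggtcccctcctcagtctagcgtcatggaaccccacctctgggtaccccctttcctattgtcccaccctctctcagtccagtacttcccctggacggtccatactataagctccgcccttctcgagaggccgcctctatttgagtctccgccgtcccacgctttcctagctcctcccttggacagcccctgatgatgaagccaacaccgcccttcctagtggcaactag
RefSeq promoters were found for 34 of the 41 members, and Psme2 had a second one, not shown. A member was counted once if any of its promoters matched, whereas the share of all promoters counts each promoter. The antioxidant response element letters occurred in 6 of the 34 (Psmb5, Psmb6, Psmc6, Psmd9, Psmd12 and Psme4), or 17.6%, beside 12.4% of all 32851 promoters in the table. The interferon element letters occurred in 4 (Psmb3, Psmd4, Psmd9 and Psme1), or 11.8%, beside 3.44% of all promoters, and in Psme1 they began 9 bases past the start. The NF-Y letters occurred in 12, or 35.3%, beside 37.4% of all promoters. A match is a description of letters and not a site shown to be used.

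The values are log2 intensities as the authors deposited them, brought to a common distribution across arrays (median 6.93, lowest 3.21, highest 14.19). Testing required a probe to exceed the median of its array in 4 or more of the 8 arrays, which 33 of the 41 members did. The 8 others were Psma5, Psmb9, Psmb11, Psmc6, Psmd5, Psmd9, Psmd11 and Psmg3. Differences are log2 values of the knockout minus those of the wild type, tested with limma over 4698 probes with Benjamini-Hochberg adjustment. With 4 arrays a genotype, a difference had a median standard error of 0.21. Sod1 itself was not analysed here, and the genotype labels stand without that check. In whole muscle, fewer cells of a type and less RNA per cell cannot be told apart.

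Markers of fibre types and of other cells in the muscle were read on the same arrays, and limma called 0 of them. Of 10 fast fibre markers 9 were on the arrays and tested, and 8 of the 9 had a higher knockout mean. At 3 of the 9 (Tnnc2, Mylpf and Actn3) the genotypes did not overlap, where 4.58% of tested genes showed no overlap. All 3 read between 13.58 and 13.98, near the highest value on the arrays, 14.19. Whether intensities are compressed there was not tested. The summed linear intensity of the 9 fast markers ran from 123020 to 127989 in the knockout, against 111012 to 118874 in the wild type, so the ranges did not overlap. Of 7 slow fibre markers 5 were tested, 2 with a lower and 3 with a higher knockout mean. Below the filter, Myh7 and Tnni1 differed by 0.77 and 0.86, and the genotypes overlapped at both. Atp2a2 differed by 1.09 and Myl3 by -1.17. The sum of the 7 ran from 1938 to 2750 in the knockout, against 1578 to 2282 in the wild type. The 2 tested fibroblast markers, the 2 tested erythroid markers and the 1 tested nerve marker, Pmp22 (-0.86), had lower knockout means. Of 6 endothelial markers 5 were on the arrays and 3 were tested, all 3 with a lower knockout mean. The other 2, below the filter, did not overlap: Tek read 5.55 to 5.96 in the knockout, against 6.23 to 6.42 in the wild type, and Eng 5.44 to 6.44 in the knockout, against 6.46 to 7.11 in the wild type. The sum of the 5 ran from 541 to 706 in the knockout, against 618 to 902 in the wild type. The single adipocyte marker on the arrays, Fabp4, was below the filter and read 4.10 to 4.50 in the knockout, against 4.53 to 5.30 in the wild type. The part of these markers in the proteasome values was not tested.

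Across the proteasome genes, most knockout means lay slightly below the wild type while the PA28 pair lay above it, and no difference passed the test. Of 33 tested members, 26 had a lower knockout mean and 7 a higher one, where 56.1% of 3822 tested genes had a lower mean and 43.9% a higher one, and the median difference was -0.11, against -0.04 over all tested genes. Without wild-type replicate 2, 16 of 33 were lower. By adjusted p in limma, 0 of 33 members were called, as were 0 of all 4698 probes (0%). At an unadjusted p under 0.05 there were 0 members, where 9.34% of tested genes were below it. The genotypes overlapped at every tested member, where 4.58% of tested genes showed no overlap. The members share arrays, so the count of lower means does not stand for independent observations.

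**Figure D1:**
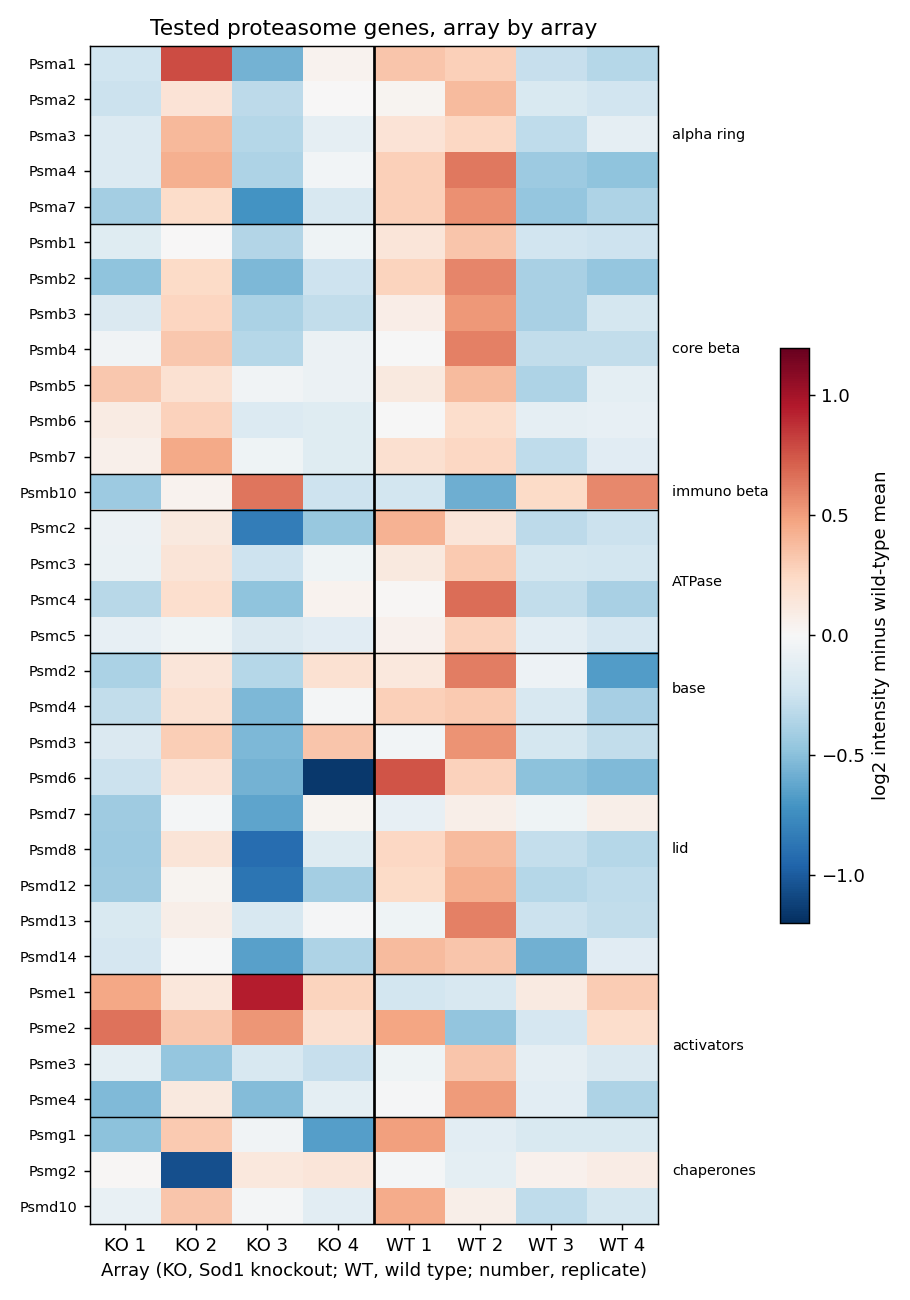
Log2 intensity minus the wild-type mean (colour) for the 33 tested proteasome genes (rows, by structural group) in each knockout array (left of the line) and wild-type array (right). Knockout replicate 2 and wild-type replicates 1 and 2 are mostly red in the core and regulatory particle rows. Knockout replicate 3 is blue there. Psmb10 and Psme1 are red in knockout replicate 3 and blue in wild-type replicates 1 and 2.

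The 26S subunits, meaning the alpha ring, the core beta subunits, the ATPases, the other base subunits and the lid, had 29 genes on the arrays, of which 25 were tested. Their median, each gene set against its own wild-type mean, was -0.18, 0.18, -0.38 and -0.07 in knockout replicates 1 to 4, against 0.14, 0.38, -0.30 and -0.29 in wild-type replicates 1 to 4. Arrays of both genotypes lay on either side of 0, and the ranges of the genotypes overlapped.

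The 26S subunits were high or low together across arrays. In knockout replicate 2 and in wild-type replicate 2, 25 of 25 stood above their own mean over the 8 arrays, and in wild-type replicate 1, 22 did. In knockout replicate 3 there were 0 of 25, in wild-type replicate 3 there was 1, in wild-type replicate 4 there were 2, and knockout replicates 1 and 4 had 4 and 10. Knockout replicate 3 held the lowest value of 17 of the 25, or 68%, beside 16.2% of tested genes, and wild-type replicate 2 the highest of 18, or 72%, beside 21.5% of tested genes. Over the 300 pairs of 26S genes, with genotype means removed, the median Pearson r across the 8 arrays was 0.83, beside 0.00089 over all pairs of tested genes. That is a description only, since all points come from the same arrays and one normalization. For single genes, the median SD between arrays was 0.33 for the 26S genes and 0.31 for all tested genes. The 2 sets were not matched for intensity.

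**Figure D2:**
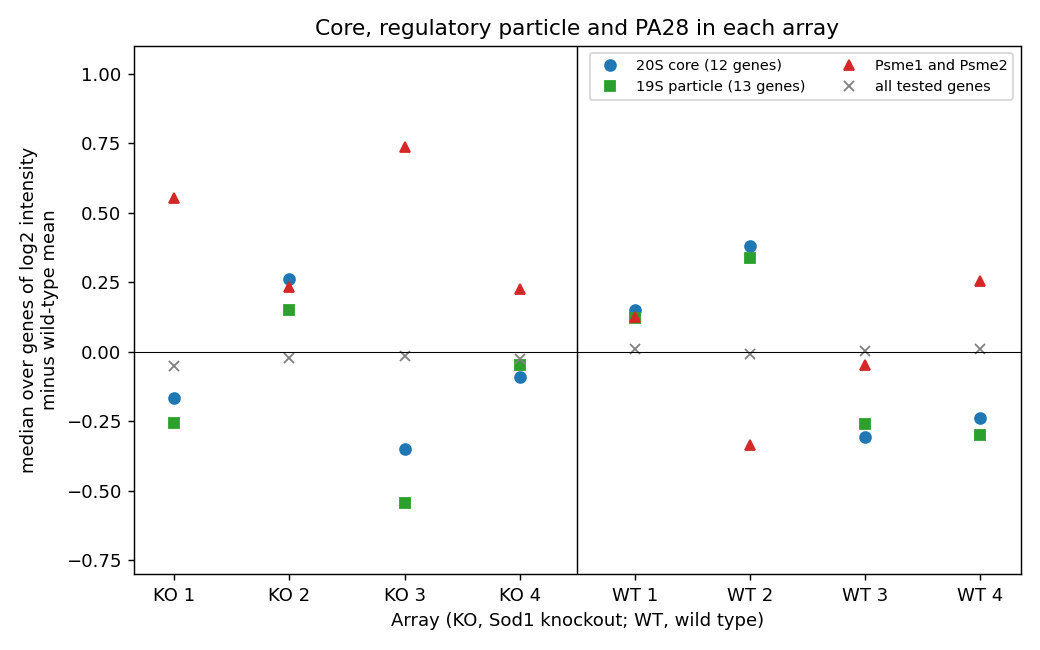
Median over genes of log2 intensity minus the wild-type mean in each array, for the 20S core (12 genes), the 19S particle (13 genes), Psme1 with Psme2, and all tested genes, whose median the common normalization holds near 0. Core and regulatory particle lie on the same side of 0 in every array. Both are lowest in knockout replicate 3, at -0.35 and -0.54. The PA28 pair is highest in that array, at 0.74, with Psme1 at 0.94 and Psme2 at 0.53. Psme2 alone was highest in knockout replicate 1, at 0.65.

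In the alpha ring, the outer ring of the core, 4 of 5 tested genes had a lower knockout mean, with a median difference of -0.06. Without knockout replicate 3 that median was 0.04, and without wild-type replicate 2 it was 0.03. Psma7 had the largest difference among the tested genes of the ring. It read 11.11, 11.73, 10.80 and 11.32 in knockout replicates 1 to 4, against 11.80, 12.06, 11.04 and 11.14 in wild-type replicates 1 to 4. Knockout replicate 3 lay below all wild-type arrays and the other knockouts among them, and the difference of -0.27 (95% interval -0.90 to 0.35) did not pass (limma adjusted p 0.775). Psma2 read 12.54, 12.96, 12.48 and 12.80 in the knockout, against 12.83, 13.18, 12.61 and 12.56 in the wild type. Psma3 read 12.72, 13.28, 12.55 and 12.78 in the knockout, against 13.05, 13.14, 12.58 and 12.78 in the wild type. In Psma2 the highest array was wild-type replicate 2 and in Psma3 knockout replicate 2, and both genes were lowest in knockout replicate 3. Psma1 and Psma4 differed by 0.00 and -0.04. Psma5, which did not pass the filter, read 5.78 to 6.43 in the knockout, against 6.41 to 7.53 in the wild type, with a difference of -0.67.

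Among the core beta subunits, 4 of 7 tested genes had a lower knockout mean, with a median difference of -0.04, which was 0.08 without wild-type replicate 2 and 0.07 without knockout replicate 3. Psmb5, Psmb6 and Psmb7, which carry the catalytic sites, differed by 0.10, 0.02 and 0.08, and their 95% intervals ran from -0.33 to 0.52, from -0.34 to 0.37 and from -0.35 to 0.51. Psmb5 read 11.98, 11.84, 11.62 and 11.59 in the knockout, against 11.78, 12.04, 11.29 and 11.54 in the wild type. Each of the 3 signs turned with single arrays left out: Psmb5 and Psmb6 were -0.03 and -0.02 without wild-type replicate 3, and Psmb7 was -0.05 without knockout replicate 2. Psmb2 read 11.51, 12.22, 11.45 and 11.74 in the knockout, against 12.25, 12.57, 11.60 and 11.52 in the wild type (difference -0.26). Psmb1 read 11.33, 11.48, 11.13 and 11.43 in the knockout, against 11.62, 11.82, 11.25 and 11.24 in the wild type (difference -0.14). Psmb3 read 12.15, 12.58, 11.95 and 12.04 in the knockout, against 12.41, 12.85, 11.94 and 12.12 in the wild type (difference -0.15). In each of Psmb1, Psmb2 and Psmb3 wild-type replicates 1 and 2 were above wild-type replicates 3 and 4, and the knockout values spread over much of the same range. Psmb4 differed by -0.04. Psmb11, the core subunit made in the thymus, read 3.29 to 4.51 in the knockout, against 3.44 to 4.10 in the wild type, near the lowest values of the arrays.

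Of the immunoproteasome subunits on the arrays, Psmb10 alone was tested. Psmb10, which takes the place of Psmb7, read 7.43, 7.91, 8.52 and 7.62 in the knockout, against 7.65, 7.29, 8.10 and 8.45 in the wild type. It was highest in knockout replicate 3, where the 26S subunits were lowest, and lowest in wild-type replicate 2, where they were highest, and the genotype means were both 7.87. Its second probe gave 8.58 in knockout replicate 3 and 7.27 in wild-type replicate 2, the extremes again. Psmb9, which did not pass the filter, read 4.00 to 5.86 in the knockout, against 4.69 to 5.68 in the wild type. Of 13 leukocyte markers listed, 8 were on the arrays and 2 of these, Cd74 and Laptm5, passed the filter; none was at 0, a value these arrays do not give. The summed linear intensity of the 8 ran from 537 to 1793 in the knockout, against 487 to 957 in the wild type. That sum was also highest in knockout replicate 3, as were Cd74, Laptm5 and C1qb singly. The other markers were not: Lyz2 was highest in knockout replicate 4 and Adgre1 in knockout replicate 2. C1qa, C1qc and Fcer1g were highest in wild-type replicate 4. Cd74 and Laptm5 differed by 1.15 and 0.49 and neither passed. Their part in the Psmb10 and PA28 values was not tested.

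All 13 tested genes of the 19S particle had a lower knockout mean, with a median difference of -0.17, where the core had 8 of 12 and -0.05. Without wild-type replicate 2, 8 of 13 were lower in the particle and 3 of 12 in the core, and the median of the 26S subunits was 0.02. With estimated array weights, 8 of 13 and 6 of 12 were lower, with a 26S median of -0.03. With the mean of all probes of a gene, 11 of 13 and 8 of 12 were lower. Whether particle and core differed from each other was not tested.

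**Figure D3:**
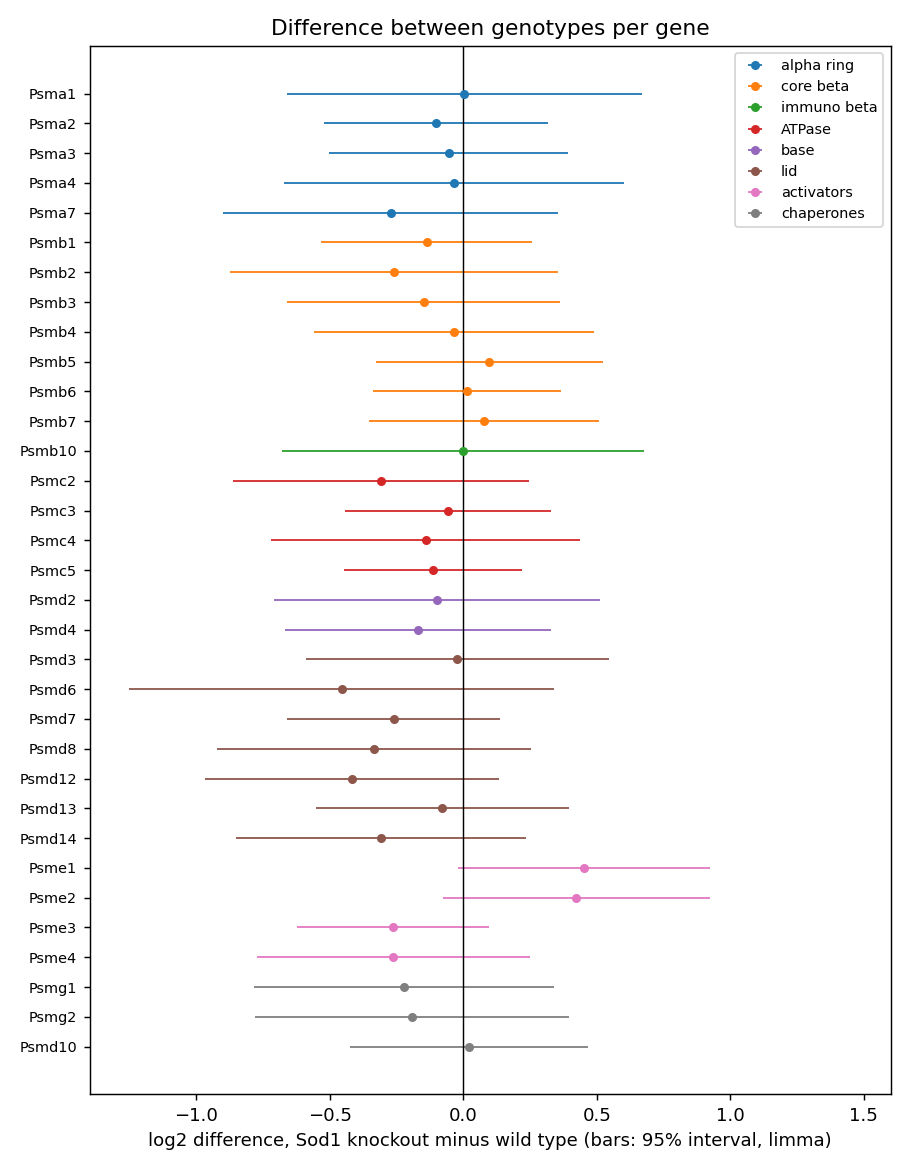
Log2 difference, knockout minus wild type, for each tested proteasome gene, with its 95% interval from limma. Every interval includes 0; the points of the ATPases, base and lid all lie left of 0, and Psme1 and Psme2 lie farthest right, at 0.45 and 0.42.

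Of the ATPases, which unfold the substrate, 4 of 4 tested had a lower knockout mean, with a median of -0.13, which was 0.01 without wild-type replicate 2 and -0.02 with array weights. Psmc2 read 8.21, 8.39, 7.45 and 7.83 in the knockout, against 8.70, 8.43, 7.97 and 8.03 in the wild type (difference -0.31, limma adjusted p 0.708). The 2 lowest values were knockout replicates 3 and 4, and the others overlapped. Psmc4 read 11.52, 12.05, 11.37 and 11.89 in the knockout, against 11.87, 12.52, 11.55 and 11.46 in the wild type (difference -0.14). Psmc5 read 11.89, 11.94, 11.82 and 11.86 in the knockout, against 12.04, 12.27, 11.87 and 11.78 in the wild type (difference -0.11). At this Psmc5 probe the SD was 0.05 among knockout arrays and 0.21 among wild-type arrays. A second Psmc5 probe, also tested, did not share that contrast, with SDs of 0.30 for knockout arrays and 0.28 for wild-type arrays. Psmc3 differed by -0.06, and Psmc6, below the filter, by -0.58, at 5.43 to 6.50 in the knockout, against 6.17 to 6.92 in the wild type. The other base subunits were Psmd2, a scaffold, and Psmd4, a ubiquitin receptor. Psmd4 read 12.74, 13.21, 12.50 and 13.01 in the knockout, against 13.32, 13.35, 12.84 and 12.64 in the wild type (difference -0.17). Psmd2 read 10.22, 10.75, 10.26 and 10.78 in the knockout, against 10.73, 11.22, 10.54 and 9.93 in the wild type (difference -0.10). Neither separated the genotypes, and the median of the pair, -0.14, was 0.02 without wild-type replicate 2.

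In the lid, 7 of 7 tested genes had a lower knockout mean, with a median of -0.31. Without wild-type replicate 2, and likewise with array weights, 5 of 7 were lower, and without knockout replicate 3 the median was -0.14. Psmd12, a structural lid subunit, read 8.67, 9.14, 8.22 and 8.69 in the knockout, against 9.33, 9.53, 8.76 and 8.79 in the wild type. In 3 of 4 knockout arrays it lay below every wild-type array, and knockout replicate 2 lay among them, so that the difference of -0.42 (95% interval -0.97 to 0.13, 1.34-fold higher in the wild type) did not pass (limma adjusted p 0.612). Psmd7, which pairs with the deubiquitinase of the lid, read 11.70, 12.10, 11.50 and 12.16 in the knockout, against 12.03, 12.20, 12.07 and 12.20 in the wild type. Wild-type arrays agreed closely at this Psmd7 probe, with an SD of 0.09, against 0.32 in the knockout. Knockout replicates 1 and 3 were low and replicates 2 and 4 inside the wild-type range (difference -0.26, limma adjusted p 0.658). A second Psmd7 probe read 11.08, 10.94, 10.32 and 10.51 in the knockout, against 10.68 to 10.92 in the wild type (difference -0.08). There knockout replicate 1 was the highest array, so its low value was not shared by both probes. Psmd6 read 7.79, 8.21, 7.48 and 6.89 in the knockout, against 8.80, 8.32, 7.55 and 7.51 in the wild type (difference -0.46, limma adjusted p 0.693). At this probe knockout replicate 4, not replicate 3, was lowest. A second Psmd6 probe, below the filter, was lowest in wild-type replicate 3, at 5.92. Psmd14, the deubiquitinase itself, and Psmd8 differed by -0.31 and -0.34, Psmd3 by -0.02 and Psmd13 by -0.08. Psmd11, below the filter, read 5.54 to 6.84 in the knockout, against 6.53 to 7.21 in the wild type.

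Of the 4 activator genes, all tested, Psme1 and Psme2 had higher knockout means and Psme3 and Psme4 lower ones. Psme1, the alpha subunit of PA28, read 9.86, 9.53, 10.34 and 9.66 in the knockout, against 9.18, 9.21, 9.50 and 9.70 in the wild type. All 4 knockout arrays stood above 3 of the wild-type arrays, and wild-type replicate 4 lay above knockout replicates 2 and 4. The difference of 0.45 (95% interval -0.02 to 0.92, 1.37-fold) had the smallest p of all members and did not pass (limma p 0.0592, adjusted p 0.533). A second Psme1 probe read 8.87, 8.56, 8.94 and 8.62 in the knockout, against 8.23, 8.06, 8.47 and 8.74 in the wild type, a difference of 0.37. Psme2, the beta subunit, read 7.65, 7.33, 7.54 and 7.19 in the knockout, against 7.48, 6.53, 6.80 and 7.21 in the wild type. Wild-type replicates 2 and 3 were below all knockout arrays and replicates 1 and 4 among them, for a difference of 0.42 (95% interval -0.07 to 0.92, limma adjusted p 0.573). Within each array, Psme1 minus the 26S median, both relative to the wild-type mean, was 0.64, -0.04, 1.32 and 0.34 in knockout replicates 1 to 4, against -0.36, -0.57, 0.40 and 0.60 in wild-type replicates 1 to 4.

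Psme3, which forms the nuclear PA28 gamma, read 8.92, 8.57, 8.84 and 8.76 in the knockout, against 8.98, 9.37, 8.93 and 8.87 in the wild type. The genotypes touched only in that knockout replicate 1 exceeded wild-type replicate 4, and the difference was -0.26 (95% interval -0.62 to 0.10, limma adjusted p 0.624). Psme4, the PA200 cap, differed by -0.26 and ranged from 10.14 to 10.78 in the knockout, against 10.30 to 11.18 in the wild type. Psme3ip1, set apart above, read 8.47, 8.78, 8.72 and 9.17 in the knockout, against 8.54, 9.03, 8.65 and 8.80 in the wild type, and Psmc3ip was below the filter.

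**Figure D4:**
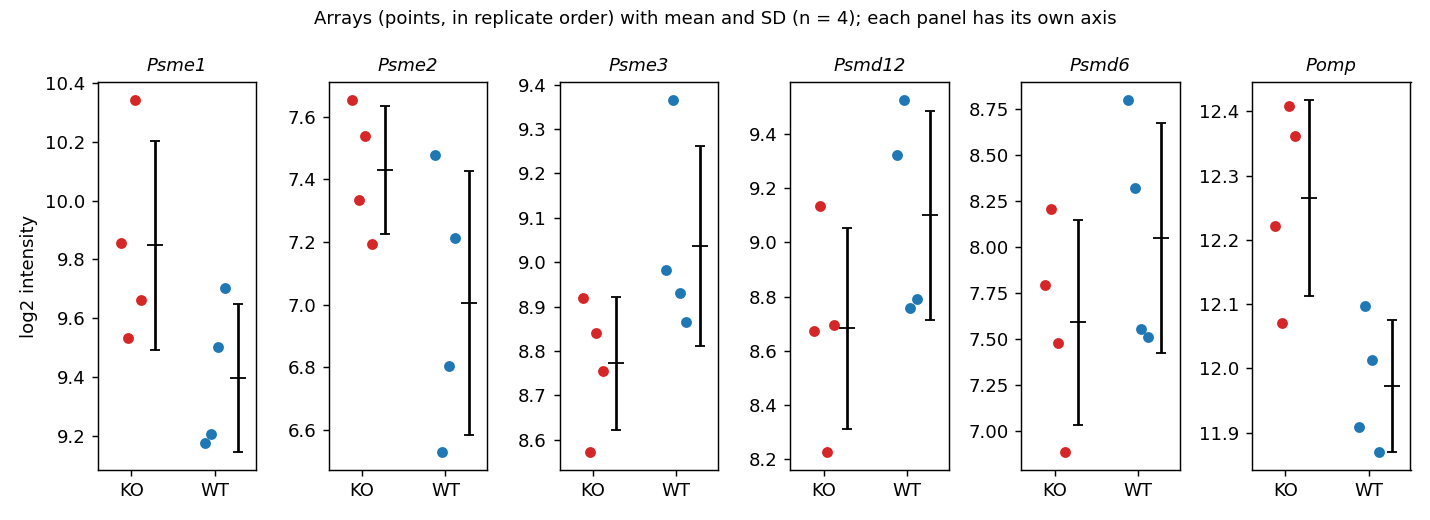
Log2 intensity of 6 genes in the 4 knockout arrays (left in each panel) and the 4 wild-type arrays (right), with mean and SD. Psme1, Psme2 and Pomp have higher knockout means and Psme3, Psmd12 and Psmd6 lower ones, and the genotypes overlap in each panel.

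The assembly chaperones, which build the core and base and then leave, showed no common direction among 3 tested genes. Psmg1, a member of the chaperone pair that starts the alpha ring, read 7.50, 8.30, 7.95 and 7.33 in the knockout, against 8.49, 7.86, 7.81 and 7.81 in the wild type (difference -0.22). Its partner Psmg2 read 8.49, 7.42, 8.60 and 8.62 in the knockout, against 8.45, 8.35, 8.52 and 8.56 in the wild type. Psmg2 was level in 7 arrays and low in knockout replicate 2 alone, so its difference of -0.19 was 0.10 without that array. Psmd10 (gankyrin), a chaperone of the base, read 7.44, 7.86, 7.50 and 7.40 in the knockout, against 7.97, 7.60, 7.22 and 7.32 in the wild type (difference 0.02). Psmd5, Psmd9 and Psmg3 were below the filter.

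A second probe was on the arrays for 12 members, and 8 of these passed the filter. Of the 8, 4 differed in the same direction as the main probe (Psmb7, Psmd7, Psme1 and Psme4) and 4 in the opposite one (Psmb10, Psmc5, Psmd2 and Psmd13). Psmd13 gave -0.08 with its main probe, whereas the other probe read 9.47, 10.13, 8.91 and 9.40 in the knockout, against 9.62, 9.13, 8.41 and 8.55 in the wild type, a difference of 0.55. Psmd2 gave -0.10 with its main probe and 0.42 with the other. At these 4 genes the sign therefore depended on the probe.

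Proteasome-linked genes outside the family were taken from 4 lists. Of 15 proteasome-associated genes 7 were tested, 3 with a higher and 4 with a lower knockout mean and 0 called in either direction by limma. Pomp, the chaperone that matures the core, read 12.22, 12.07, 12.41 and 12.36 in the knockout, against 11.91, 12.10, 12.01 and 11.87 in the wild type (difference 0.29, adjusted p 0.544), and a single pair of arrays overlapped. Ecpas, a scaffold of the 26S proteasome, and Usp14, a deubiquitinase bound to it, differed by -0.29 and -0.39. Of 9 genes of the Nfe2l1 axis 5 were tested, with 0 called. Nfe2l1 itself read 12.41, 12.29, 12.68 and 12.52 in the knockout, against 11.93, 12.37, 12.56 and 12.25 in the wild type (difference 0.20, adjusted p 0.739), so the genotypes overlapped. Mafg and Maff, small Maf partners of Nfe2l1, differed by -0.37 and -0.62. Of 12 genes of substrate delivery through the p97 segregase 8 were tested, 6 lower and 2 higher with 0 called, and Ubqln1, Nploc4 and Ubqln4 differed by -0.23, -0.35 and -0.13. Of 15 genes of antigen processing 2 were tested, B2m at 0.07 and Pdia3 at -0.09, with 0 called.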

How the data were processed

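Per the labels' protocols, EDL RNA was isolated with a Qiagen kit for fibrous tissue and amplified to biotin-labelled cRNA for Illumina arrays. The log2 intensities deposited by the authors hold the same sorted values in all 8 columns, so they were quantile normalized; base 2 was judged from their range, while the background correction and software were not given in the sources used here. A shift of all transcripts cannot be seen in such values. A second table was not used, since its 8 columns match no sample's labels.

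Of 9232 probes, 8403 carried 1 gene in the platform annotation, 3 several and 826 none; all 41 members matched RefSeq by Entrez number. Limma 3.58.1 (R 4.3.3) gave the differences (genotype term, eBayes, two-sided) over 4698 probes, called at an adjusted p under 0.05. The procedure was tested on simulated data, with changes larger than any member difference here and noise drawn separately for each probe. Differences as small as those of the members, and variation shared among genes, were not simulated. Members and lists were chosen with earlier results of these data known. Array values are given for the up to 3 tested members of smallest p per structural group and for members without overlap. Psmb5 and genes described by second probes were added after their values were seen. Each list of proteasome-linked genes names up to 3 genes of smallest p, and some cell markers were named after their values were seen. Replicate numbers were checked for pairing: deviations of same-numbered arrays correlated at -0.28, -0.15, 0.24 and -0.34, so the numbers were not used as pairs. Alternatives covered the filter, moderation, array weights, normalization, probe choice, a replicate block and each array left out.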

Additional observations from a re-analysis of the deposited data

Results flagged for a closer look

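In 66 sets of 4 arrays (33 tested members in each genotype), a single array stood far from the other three by Dixon's criterion in 2, where chance flags about 1 in 20. Psmg2 read 7.42 in knockout replicate 2, while the other knockout arrays read 8.49 to 8.62. Psmg1, its partner in the same chaperone pair, read 8.49 in wild-type replicate 1, while the other wild-type arrays read 7.81 to 7.86.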

How the results depend on the processing

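No member passed the adjusted threshold under any alternative run. Over all 4698 tested probes, 4 were called with array weights, 36 without knockout replicate 2 and 59 without both replicates numbered 2. The replicate block, in which pairing by number was assumed, left 0 members called, 26 lower and a median difference of -0.11. The number of members lower in the knockout ran from 16 (without wild-type replicate 2) to 30 (without wild-type replicate 3) as arrays were left out, against 26 of 33. The median difference of all members then ran from -0.20 to 0.02. With estimated array weights 19 members were lower. Without both replicates numbered 2, chosen after seeing the data, 18 of 25 26S subunits were lower, with a median of -0.07. The median of the activators was 0.08, and -0.26 under the stricter filter, which keeps fewer genes. Signs of small differences turned: Psmc4 to 0.0059 and Psmd2 to 0.031 with array weights; Psmb10 to 0.024 with cyclic loess, 0.0041 with the mean of other probes subtracted and 0.019 with the mean of all probes, where Psmd2 was 0.16; and, without both replicates numbered 2, Psmd2 to 0.022, Psmg2 to 0.057 and Psmd10 to -0.058. The cause was not tested. With single arrays left out, Psma2 ran from -0.19 to 0.025, Psma3 from -0.20 to 0.039, Psmb3 from -0.28 to 0.02, Psmb10 from -0.22 to 0.19, Psmc4 from -0.27 to 0.081, Psmd2 from -0.32 to 0.10, Psmg2 from -0.30 to 0.10 and Psmd10 from -0.082 to 0.17. Psme1 stayed between 0.29 and 0.56 and Psme2 between 0.26 and 0.58.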
